A study of Mus musculus with 12 samples.

Results

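Untreated dorsal skin of TAp63 knockout mice was compared with that of wild-type (WT) mice across all miRNAs of a small RNA sequencing table. The members are the 3 knockout and 3 WT skin libraries, taken by their genotype and tissue labels, and they are 6 of the 12 libraries of the series. All 6 came from C57Bl6 mice aged 4 weeks that were shaved and received no treatment. The knockout mice are labelled TAp63-/-, and no Cre driver or other allele is named. The other 6 libraries are cutaneous squamous cell carcinomas (SCC) from mice over 35 weeks of age given ultraviolet radiation at 2.5 kJ per square metre, 3 times a week, 2 from WT and 4 from knockout mice. The tumours enter the filter that sets which miRNAs were tested, the estimate of spread, and the test of whether the skin difference differs in them.

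p63, encoded by Trp63, is a transcription factor of the p53 family that is needed to form and keep stratified epithelium. Separate promoters give TAp63, which carries the N-terminal transactivation domain, and ΔNp63, which lacks it and is the main form in basal keratinocytes. TAp63 is known as a tumour and metastasis suppressor that acts in part by activating Dicer, the enzyme that cuts miRNA precursors, and by activating single miRNAs such as miR-130b. A hairpin precursor gives a 5p and a 3p arm, of which 1 usually dominates, and a miRNA finds its targets mainly through its seed, bases 2 to 8 from its 5′ end. The study's title is about miRNAs that TAp63 regulates in this tumour, and the skin comparison asks which miRNAs differ by genotype before any ultraviolet exposure.

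Values are the log2 levels deposited by the authors, in which every library has nearly the same set of values (quantile normalization, judged from the values) and low values are set to a floor of 3.32, the log2 of 10. No miRNA differed between knockout and WT skin at an adjusted p under 0.05 (limma with Benjamini-Hochberg adjustment over 544 tested miRNAs; 0% called). At an unadjusted p under 0.05, 25 miRNAs were higher in knockout skin (4.60%) and 6 were lower (1.10%). A difference of at least 2-fold was seen for 20 miRNAs toward knockout and 6 toward WT, and one of at least 4-fold for 3 and 0. Differences were positive for 214 tested miRNAs and negative for 262, with a median of 0, and 66 of the 544 were at the floor in all 6 skin libraries. The miRNAs described next are therefore those with the smallest p-values in each direction, and none of them passed the test.

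The sequences with the smallest p on the knockout side are shown because most of them come from 1 imprinted cluster on chromosome 12. Mature sequences are from RefSeq (GRCm38.p6, the same assembly as mm10), with the seed in capitals and the hairpin's coordinates and strand after each. No promoter or target sequence was used.
miR-21a-3p: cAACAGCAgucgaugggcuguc
miR-127-5p: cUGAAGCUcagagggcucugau
miR-381-3p: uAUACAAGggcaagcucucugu
miR-679-5p: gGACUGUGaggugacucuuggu
miR-582-3p: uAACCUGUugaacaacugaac
miR-299a-3p: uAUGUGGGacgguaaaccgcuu
miR-299b-3p: uAUGUGGGacgguaaacc
miR-370-3p: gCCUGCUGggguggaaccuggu
The miR-21a hairpin lies at chr11:86584067-86584158 on the minus strand and overlaps an annotated exon of Vmp1. The miR-582 hairpin, at chr13:109324744-109324824 on the plus strand, lies in an intron of Pde4d. On the plus strand of chromosome 12 lie the hairpins of miR-127 (chr12:109592846-109592915), miR-370 (chr12:109618258-109618336, in an intron of the noncoding RNA Rian), miR-299a (chr12:109710638-109710700), miR-679 (chr12:109715577-109715650) and miR-381 (chr12:109726822-109726896). miR-299b is annotated on the minus strand inside the miR-299a hairpin (chr12:109710645-109710693). Its letters are the first part of miR-299a-3p and both rows hold the same values, so these 2 rows are 1 measurement. Apart from that pair, no seed is shared among the 8.

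The largest difference was that of miR-21a-3p, the minor arm of miR-21a, a miRNA known for its abundance in inflamed skin and squamous tumours. Its level was 6.42, 5.42 and 7.51 in WT replicates 1, 2 and 3, and 9.67, 10.60 and 8.80 in knockout replicates 1, 2 and 3. Every knockout library lay above every WT library. Each ± here and below is an SE from the fit of all 12 libraries, so the spread within tumours enters it. The difference was 3.24 ± 0.61 (log2, n = 3 against 3 skin libraries), or 9.46-fold, with an adjusted p of 0.121 by limma. It was past the threshold in 3 of 19 other settings: adjusted p = 0.0484 when only the 344 miRNAs above the floor in all 6 skin libraries were tested, 0.0497 (difference 3.69) without knockout replicate 3, and 0.00381 with library quality weights. The main arm, miR-21a-5p, gave 16.29, 17.07 and 16.78 in WT and 16.02, 17.72 and 17.54 in knockout skin, groups that overlap, with a difference of 0.38 ± 0.40. The log2 ratio of the 3p to the 5p arm was -9.87, -11.66 and -9.27 in WT and -6.35, -7.12 and -8.75 in knockout skin, so that the minor arm stayed far below the main arm in every library.

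miR-582-3p showed the next largest difference, 2.99 ± 0.76 (adjusted p = 0.252, limma), and an uneven one. It was at the floor in WT replicate 1 and at 4.06 and 5.13 in the other WT libraries, against 8.31, 7.96 and 5.19 in knockout skin. Knockout replicate 3 thus lay barely above WT replicate 3. Without knockout replicate 3 the difference was 3.97 with an adjusted p of 0.0206, and 2 miRNAs in all were then called, miR-582-3p and miR-21a-3p. Its other arm, miR-582-5p, stood at -0.21 ± 0.59.

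miR-127-5p, the minor arm of an imprinted miRNA whose main arm targets the retrotransposon-derived gene Rtl1, was at 5.34, 5.30 and 6.74 in WT and 8.17, 7.90 and 7.74 in knockout skin. The groups did not overlap, and the difference was 2.14 ± 0.49, or 4.41-fold (adjusted p = 0.252, limma). miR-381-3p was at 9.13, 9.06 and 10.08 in WT and 11.78, 11.20 and 10.66 in knockout skin. This is the most abundant of the leading miRNAs of the cluster, and its difference was 1.79 ± 0.45, or 3.46-fold, with the same adjusted p. miR-299a-3p was at 6.11, 6.33 and 6.87 against 8.07, 7.69 and 7.69, a difference of 1.38 ± 0.37 (adjusted p = 0.262). In all of these the knockout libraries were above the WT libraries, and WT replicate 3 was the WT library nearest to them.

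Near the floor were miR-370-3p and miR-679-5p. miR-370-3p was at the floor in all 3 WT libraries and at 5.54, 5.43 and 4.14 in knockout skin, a difference of 1.72 ± 0.49 from the floor (adjusted p = 0.324, limma). miR-679-5p was at the floor in 2 WT libraries and at 4.13 in the third, against 5.08, 4.26 and 5.02 (1.20 ± 0.30, adjusted p = 0.252). Libraries at the floor show no spread, so these SEs can be too small, and differences from the floor are no folds. Only 2 miRNAs, miR-370-3p and miR-134-3p of the same cluster, were at the floor in every WT and above it in every knockout library, and 0 showed the opposite.

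The other 2 of the 10 smallest p-values on this side lay outside the cluster. miR-532-5p, from a hairpin cluster on the X chromosome, was at 9.90, 9.36 and 10.84 in WT and 11.57, 11.50 and 10.94 in knockout skin (1.31 ± 0.39, adjusted p = 0.388, limma), while its 3p arm stood at -0.30 ± 0.34. miR-28a-3p was at 8.31, 7.49 and 8.53 against 9.20, 8.99 and 8.86 (0.91 ± 0.29, adjusted p = 0.467, and 0.60 without WT replicate 2). For both, the knockout libraries exceeded all WT libraries, with WT replicate 3 the highest WT library. WT replicate 3 lay above the mean of the other WT libraries in 9 of the 10 miRNAs named on this side.

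**Figure D1:**
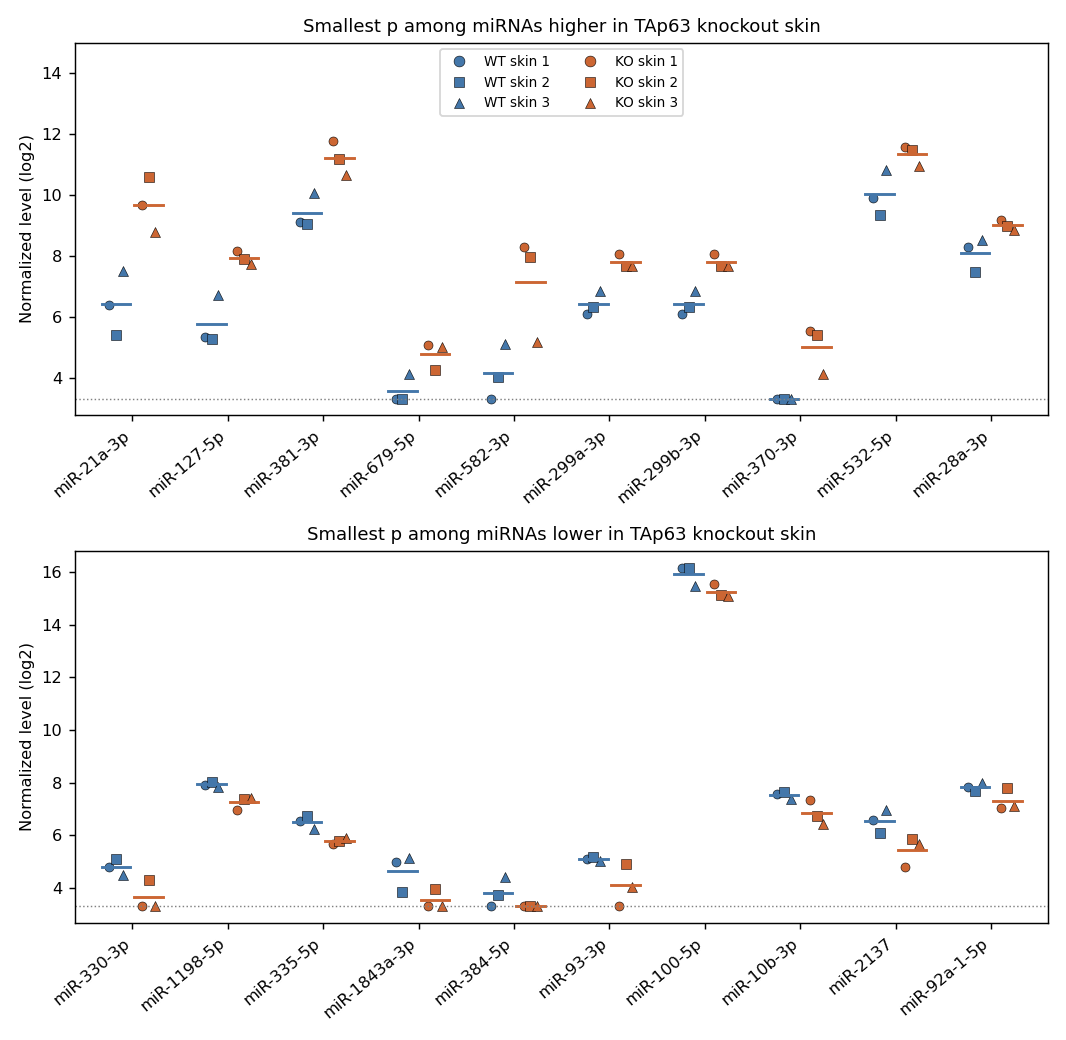
The y axis gives the deposited log2 level of each skin library for the 10 miRNAs with the smallest p in each direction, blue for WT and orange for knockout skin, with replicates by symbol, a bar at each group mean and a dotted line at the floor. In the upper panel WT replicate 3 (blue triangle) is often the WT library nearest to the knockout libraries, and in the lower panel many knockout values lie on the floor.

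The most abundant miRNA among the 25 was miR-143-3p, which is known from smooth muscle and other mesenchymal cells. It was at 17.54, 17.23 and 18.21 in WT and at 19.25, 19.25 and 18.49 in knockout skin, which are ranks 8, 10 and 5 in the WT and 2, 2 and 4 in the knockout libraries. The groups did not overlap, but the difference of 1.33 ± 0.43, or 2.52-fold, had an adjusted p of 0.467 (limma). Quantile normalization ties such levels to rank, so the steps between the top miRNAs are set by the shared distribution. miR-92a-3p of the growth-promoting miR-17 cluster was at 12.82, 12.53 and 13.91 in WT and 14.32, 14.65 and 13.86 in knockout skin, groups that overlap through replicate 3 of each (1.19 ± 0.41, adjusted p = 0.501). Of 12 tested members of that cluster and its paralogs, 4 were positive and 7 negative, with a median of -0.25. The remaining miRNAs outside chromosome 12 with an unadjusted p under 0.05 included let-7i-3p (0.92 ± 0.33), miR-423-3p (1.13 ± 0.41), miR-653-5p (0.82 ± 0.28), miR-152-5p (0.68 ± 0.28) and miR-140-3p (0.66 ± 0.29).

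On the WT side the differences were smaller. The leading sequences are shown because 2 of them share a seed with abundant skin miRNAs: miR-384-5p carries the seed of the miR-30 family, and miR-100-5p that of miR-99a-5p.
miR-330-3p: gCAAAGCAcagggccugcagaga
miR-1198-5p: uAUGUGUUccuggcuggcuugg
miR-335-5p: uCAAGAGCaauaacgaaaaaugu
miR-384-5p: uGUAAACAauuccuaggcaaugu
miR-30a-5p: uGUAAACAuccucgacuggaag
miR-100-5p: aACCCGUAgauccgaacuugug
miR-99a-5p: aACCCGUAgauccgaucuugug
miR-10b-3p: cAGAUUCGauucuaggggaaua
The miR-330 hairpin overlaps an exon of Eml2 (chr7:19181465-19181562, plus strand), miR-1198 lies in an intron of Gripap1 (chrX:7807101-7807221, plus strand), and miR-335 in an intron of the imprinted gene Mest (chr6:30741299-30741396, plus strand). The miR-100 hairpin lies in an intron of noncoding RNAs (chr9:41531425-41531504, plus strand) and miR-10b in an intron of the Hoxd3 and Hoxd4 genes (chr2:74726070-74726137, plus strand). The miR-384 hairpin (chrX:105344282-105344369, minus strand) lies outside annotated genes. miR-99a-5p and miR-100-5p are nearly identical, so reads could be split between them in the authors' counting.

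miR-330-3p had the smallest p on the WT side. It was at 4.82, 5.11 and 4.49 in WT skin, and at 4.32 in knockout replicate 2 and at the floor in the other 2 knockout libraries (-1.15 ± 0.40, adjusted p = 0.507, limma). miR-1198-5p, at 7.93, 8.03 and 7.86 against 6.95, 7.40 and 7.41, was tighter (-0.69 ± 0.28, adjusted p = 0.747). miR-335-5p was at 6.55, 6.75 and 6.23 in WT and 5.68, 5.78 and 5.90 in knockout skin (-0.72 ± 0.31, adjusted p = 0.837). In these 3 every knockout library lay below every WT library. miR-10b-3p, the minor arm of the most abundant miRNA of the skin, also did not overlap, at 7.56, 7.66 and 7.38 against 7.36, 6.72 and 6.43 (-0.70 ± 0.36, adjusted p = 1), while miR-10b-5p held the top rank in all 6 libraries and so has the same value in each.

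The other members of this group lay near the floor or overlapped. miR-93-3p (-1.0 ± 0.45) and miR-2137 (-1.10 ± 0.56) did not overlap between genotypes, whereas miR-1843a-3p (-1.11 ± 0.48), miR-384-5p (-0.50 ± 0.22), miR-100-5p (-0.69 ± 0.34) and miR-92a-1-5p (-0.52 ± 0.27) did. miR-384-5p was at the floor in all knockout libraries and in WT replicate 1. Knockout replicate 1 was at the floor for 4 of these 10 miRNAs, knockout replicate 3 for 3 and knockout replicate 2 for 1. Knockout replicate 1 also had the fewest miRNAs above the floor, 370, against 465 and 439 in the other knockout and 390, 433 and 403 in the WT libraries. The part of this gap in the low values was not tested.

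**Figure D2:**
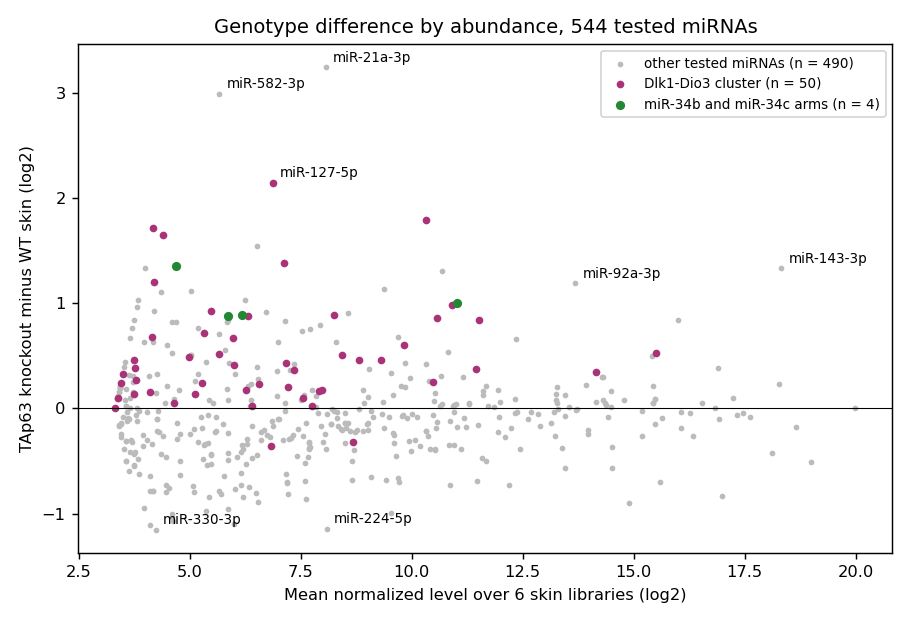
Each point is 1 of the 544 tested miRNAs, with its mean log2 level over the 6 skin libraries on the x axis and the knockout minus WT difference (log2) on the y axis. The Dlk1-Dio3 cluster (purple, n = 50) lies almost wholly above 0, and the miR-34b and miR-34c arms (green, n = 4) lie near 1, while the median of all tested miRNAs is 0.

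The Dlk1-Dio3 region on distal chromosome 12 is an imprinted domain that holds one of the largest miRNA clusters of placental mammals. Its miRNAs are made from noncoding transcripts of the maternal allele (Meg3, Rian and Mirg) and are known for high expression in the embryo and in growing tissue. Of 60 listed mature miRNAs of the region, 50 were tested and 49 were above the floor in at least 1 skin library. None was called. In knockout skin 47 had a positive and 2 a negative difference, and the median over the 50 was 0.40, against 0 over all 544 tested. Groups did not overlap in 18 of the 50 (36%), all toward knockout, where 6.80% of all tested miRNAs did so, and in 0 toward WT, where 5.15% of all tested did. These members lie in shared transcripts and are not independent measurements.

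The region spans 180.1 kb from the first to the last hairpin (chr12:109563692-109743795, plus strand for the members named here). The tested members with a position come from 35 hairpins, which fall in 2 stretches, within 54.57 kb of the first hairpin and from 145.37 to 180.02 kb. Both stretches held members with positive differences. In the first were miR-127-5p, miR-370-3p, miR-341-3p (0.89 ± 0.33), miR-434-3p (0.84 ± 0.37) and miR-434-5p (0.85 ± 0.38). The second held miR-381-3p, miR-299a-3p, miR-679-5p, miR-329-3p (1.65 ± 0.55), miR-376b-3p (0.92 ± 0.47) and miR-410-3p (0.98 ± 0.36). Of these, miR-376b-3p had an unadjusted p above 0.05. Of 13 other tested rows that lie in the region but not in the list, 11 were positive and 2 did not overlap between genotypes. The largest difference of the 13 was that of miR-540-3p, at 1.54 ± 0.58. The rows of miR-299b-3p and miR-299b-5p, both positive, repeat the values of the miR-299a arms in the list and add no measurement. The rows without overlap were miR-299b-3p and miR-134-3p (0.84 ± 0.29).

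The 2 members with negative differences were miR-409-5p (-0.32 ± 0.42) and miR-668-3p (-0.36 ± 0.71). Both overlapped between genotypes, and miR-668-3p became positive, at 0.26, without knockout replicate 1. The most abundant member, miR-127-3p, was at 15.28, 15.13 and 15.28 in WT and 16.29, 15.45 and 15.54 in knockout skin, a difference of 0.52 ± 0.37 in which the knockout libraries lay above the WT libraries, and of 0.26 without knockout replicate 1. Its hairpin's arms thus differed by unequal amounts, 0.52 for the main and 2.14 for the minor arm. miR-410-3p, from the last hairpin of the region, was at 10.21, 10.04 and 11.02 in WT and 11.17, 11.64 and 11.42 in knockout skin.

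Summed on the linear scale, the list's level in units of 1000 was 65.6, 67.3 and 75.6 in WT and 129.2, 85.0 and 89.2 in knockout skin. Knockout replicate 1, the library with the fewest miRNAs above the floor, was the highest. Leaving out any 1 skin library left 41 to 45 members positive. Of the 25 miRNAs with an unadjusted p under 0.05 toward knockout, 10 (40%) are members of this list, which is 20% of its 50 tested members, where 4.60% of all tested miRNAs had such a p. In tumours the same 50 members had 31 positive and 18 negative differences, with a median of 0.12. All 544 tested miRNAs had 307 positive and 229 negative differences there, with a median of 0.07. No member's genotype difference differed between tumours and skin past the threshold (0% of 544 tested called for that contrast).

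**Figure D3:**
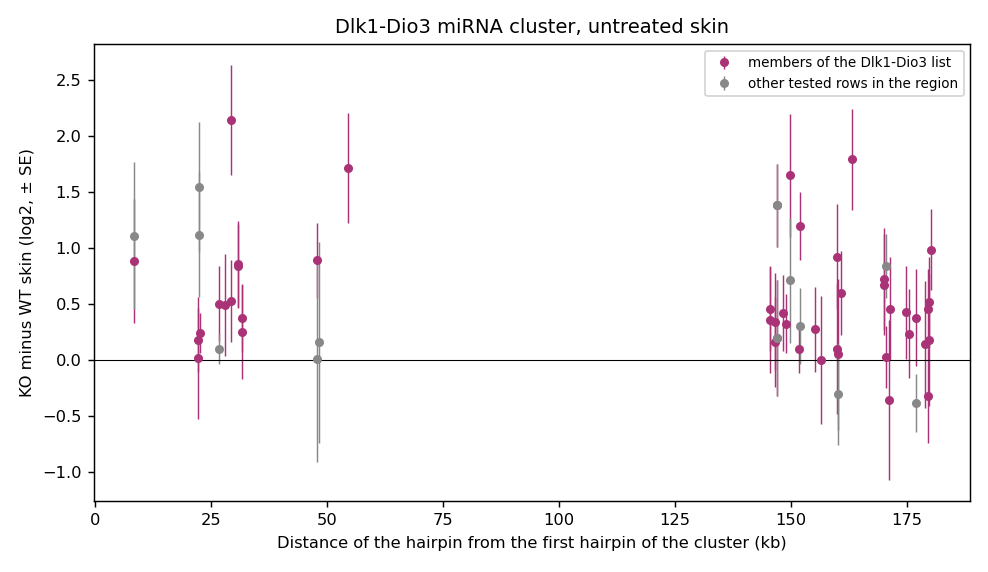
The x axis is the distance of each hairpin from the first hairpin of the region in kb, and the y axis is the knockout minus WT skin difference (log2, bars ± SE) of each tested mature miRNA, purple for list members and grey for other rows of the region. Positive differences occur in both stretches of hairpins, and the bars of many members reach 0.

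Of the p63-linked miRNAs, which are known targets or regulators of p63 proteins or of the related p53, 10 of 11 had a row and all 10 were tested. None was called, 8 differences were positive and 2 negative, and the median was 0.54. These values only describe the list, since 2 of its members were taken from published work that may rest on these samples. The median falls between miR-34a-5p (0.29) and 1 of those members, miR-30c-2-3p (0.79). Of the 8 positive differences, 4 belong to arms from a single transcript and are not independent. These were the clearest differences, those of the miR-34b and miR-34c arms, which share 1 precursor transcript on chromosome 9. The hairpins lie at chr9:51103562-51103645 for miR-34b and chr9:51103034-51103110 for miR-34c, on the minus strand. The miR-34 family is induced by p53 and restrains the cell cycle. miR-34b-5p carries the seed of miR-34a-5p, and the 3p arms share another, as the sequences show. No sequence of miR-34c-5p was used here.
miR-34a-5p: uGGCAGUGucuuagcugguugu
miR-34b-5p: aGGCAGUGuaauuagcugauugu
miR-34b-3p: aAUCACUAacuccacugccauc
miR-34c-3p: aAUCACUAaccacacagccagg
The main arm, miR-34c-5p, was at 9.82, 10.69 and 11.05 in WT and 11.35, 11.54 and 11.67 in knockout skin (1.0 ± 0.56, adjusted p = 1, limma). miR-34c-3p was at the floor in WT replicate 1 and at 4.33 and 4.41 in the others, against 5.88, 5.14 and 5.10 (1.35 ± 0.60, adjusted p = 0.837), and was the 1 list member of 10 with an unadjusted p under 0.05 in this direction, against 4.60% of all tested miRNAs. miR-34b-5p was at 5.42, 5.46 and 6.34 against 6.67, 6.62 and 6.57 (0.88 ± 0.49), and miR-34b-3p at 5.24, 5.46 and 5.55 against 6.33, 6.02 and 6.53 (0.88 ± 0.49). In all 4 arms, and in no other of the 10 list members, the knockout libraries lay above the WT libraries, as they did in 6.80% of all tested miRNAs. Without WT replicate 1 the difference of miR-34c-5p was 0.65. miR-34a-5p, from its own gene on chromosome 4, was at 9.67, 10.11 and 9.67 against 9.72, 9.94 and 10.66 and overlapped (0.29 ± 0.31, and 0.015 without knockout replicate 3).

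In tumours the genotype differences of these 4 arms had the opposite sign, at -1.15 for miR-34b-5p, -0.87 for miR-34b-3p, -0.96 for miR-34c-5p and -1.34 for miR-34c-3p. The 2 WT tumours disagreed, with miR-34c-5p at 13.20 and 10.80 and the 4 knockout tumours between 10.40 and 11.54. The tumour difference minus the skin difference was -2.03 ± 0.71 for miR-34b-5p, -1.75 ± 0.71 for miR-34b-3p, -1.96 ± 0.81 for miR-34c-5p and -2.69 ± 0.87 for miR-34c-3p. The adjusted p-values of these interactions were 0.499, 0.560, 0.560 and 0.450 (limma), so a difference between the tissues was not established.

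**Figure D4:**
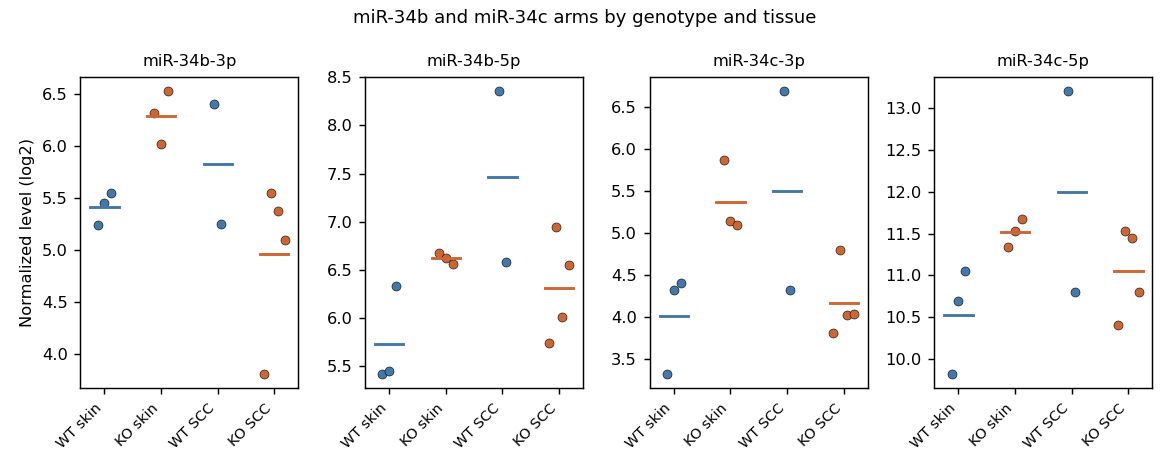
Each panel gives the log2 level of 1 arm of miR-34b or miR-34c in 3 WT and 3 knockout skin libraries and in 2 WT and 4 knockout tumours (SCC), with 1 point per library and a bar at the group mean. The y axes differ between panels and do not start at 0, and in each panel 1 of the 2 WT tumours stands well above the other.

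The remaining p63-linked miRNAs were close between genotypes or spread within them. miR-205-5p, which is activated by ΔNp63 and abundant in basal keratinocytes, was at 16.62, 16.29 and 16.62 in WT and 16.78, 16.51 and 16.37 in knockout skin, a difference of 0.05 with a 95% interval of -0.52 to 0.62. miR-203-3p, which represses p63 as keratinocytes differentiate, was at 17.40, 18.21 and 17.40 against 17.23, 17.54 and 17.999 (-0.08, interval -0.72 to 0.56). For miR-130b-3p, a miRNA that TAp63 is known to activate, the levels were 6.11, 6.33 and 6.61 in WT and 5.97, 6.70 and 6.46 in knockout skin (0.03, interval -0.84 to 0.89). These groups overlapped for all 3, and the intervals bound the differences at this sample size.

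2 further members, miR-30c-2-3p and then miR-497-5p, were put in the list because the published work is known to have followed them up, not from any label or file used here. Since that choice may rest on these samples, the direction of neither is treated as independent evidence. miR-30c-2-3p was at 7.63, 6.67 and 8.31 in WT and 8.90, 8.50 and 7.59 in knockout skin, overlapping groups with a difference of 0.79 ± 0.46, which was 0.36 without WT replicate 2 and 0.51 without knockout replicate 1. miR-497-5p was at 12.31, 12.31 and 12.07 against 12.31, 11.78 and 11.78 (-0.27 ± 0.27). Neither was called (adjusted p = 1 for both, limma).

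Markers of the skin's cell types showed few differences. The keratinocyte list, with miR-205-5p, miR-203-3p, miR-184-3p, miR-24-3p, miR-27b-3p and miR-125b-5p, had 3 positive and 3 negative differences and a median of -0.02, and every member was above the floor in every skin library. The miR-200 family, which maintains epithelial identity, had 1 positive and 4 negative differences with a median of -0.27. 2 of its 5 members did not overlap between genotypes, both lower in knockout skin, where 5.15% of all tested miRNAs were so: miR-200b-3p was at 14.12, 13.79 and 13.30 in WT and 13.13, 13.20 and 13.17 in knockout skin (-0.57 ± 0.68), and miR-429-3p at 12.59, 12.73 and 12.59 against 12.45, 12.31 and 12.002 (-0.38 ± 0.63). Both SEs include the spread within tumours and so do not measure the spread of skin alone. The family's summed linear level in units of 1000 was 56.9 to 90.2 in the skin libraries. In the knockout tumours it ran from 8.57 to 120.7. Hairpins of this family share annotated genes (miR-200a with miR-200b, and miR-141 with miR-200c), so its 5 members are not independent measurements. In bulk skin, fewer cells of a type and less miRNA per cell cannot be told apart.

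Among markers of other cells, summed linear levels in units of 1000 of the striated muscle list (73.1, 78.7 and 79.8 in WT against 66.6, 73.1 and 90.1 in knockout skin), the erythroid list (47.0, 55.3 and 37.3 against 35.2, 40.5 and 75.0), the leukocyte list (67.7, 77.6 and 74.2 against 64.8, 69.7 and 90.1) and the fibroblast list (80.3, 108.3 and 122.4 against 121.9, 119.3 and 88.5) overlapped between genotypes. None of their members had groups that did not overlap. The 2 tested melanocyte miRNAs, miR-204-5p (-0.50 ± 0.53) and miR-211-5p (-0.70 ± 0.93), also overlapped. The defining liver miRNA miR-122-5p, the neuronal miR-124-3p, and miR-208a-3p, miR-208b-3p and miR-155-5p were at the floor in every library.

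Among the lists of cell type markers, 2 had sums that did not overlap. Sums were also apart in some lists of miRNA families and clusters. The Dlk1-Dio3 cluster and miR-34 family lay higher in knockout skin, for example, and the miR-15 and miR-16 family lower. The endothelial list, miR-126-3p and miR-126-5p, summed to 62.97, 53.3 and 53.7 in WT and 47.4, 53.1 and 51.5 in knockout skin, all knockout libraries below all WT libraries by a small margin, while each member alone overlapped (-0.17 ± 0.21 and -0.15 ± 0.23). Among neural and glial miRNAs, miR-128-3p was at 8.46, 9.01 and 9.09 in WT and 9.20, 9.33 and 9.16 in knockout skin, which did not overlap (0.38 ± 0.36), and the other 4 tested members overlapped.

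The smooth muscle list was the other cell type list with sums apart. Its sum in units of 1000 was 195.5, 159.4 and 307.6 in WT and 627.4, 625.7 and 370.9 in knockout skin, and it was carried by miR-143-3p alone. Its other members had means below those of WT: miR-143-5p stood at -0.34 ± 0.59, miR-145a-5p, from the same precursor transcript, at -0.18 ± 0.31, and miR-145a-3p at -0.73 ± 0.41. All 3 overlapped between genotypes.

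Some miRNA families differed more between libraries of 1 genotype than between genotypes. Levels of miR-196a-5p, a Hox-cluster miRNA that marks body position, were 6.29, 9.52 and 11.20 in WT and 8.03, 10.44 and 6.48 in knockout skin, and miR-196b-5p, which is nearly identical and could share reads with it, followed the same order within each genotype (5.68, 7.26 and 10.40 against 7.58, 9.75 and 6.36). miR-31-5p, known from the hair cycle and from wounded epidermis, was at 13.08, 12.59 and 12.002 in WT and 9.69, 12.53 and 13.27 in knockout skin, and miR-31-3p was at the floor in knockout replicate 1. For each of these the range within either genotype exceeded the difference between the genotype means.

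All 5 members of the miR-99, miR-100 and miR-125 families had negative differences, with a median of -0.69 and no call. The hairpin of miR-100 and a hairpin of miR-125b lie close together on chromosome 9. Since miR-99a-5p and miR-100-5p could also share reads, the 5 members are not independent measurements. Their summed level in units of 1000 was 490.9 and 400.4 in WT replicates 1 and 2, but 205.3 in WT replicate 3, within the knockout range of 164.1 to 237.2. miR-99b-5p showed the same split, at 18.21, 17.72 and 16.29 in WT and 16.51, 16.29 and 16.94 in knockout skin (-0.83 ± 0.55). miR-99a-5p was at 15.88, 15.78 and 14.41 against 14.74, 14.07 and 14.57 (-0.90 ± 0.56), and miR-100-5p at 16.17, 16.17 and 15.49 against 15.54, 15.13 and 15.08. WT replicate 3 thus stood nearer to the knockout libraries than to the other WT libraries in miR-99a-5p and miR-99b-5p.

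**Figure D5:**
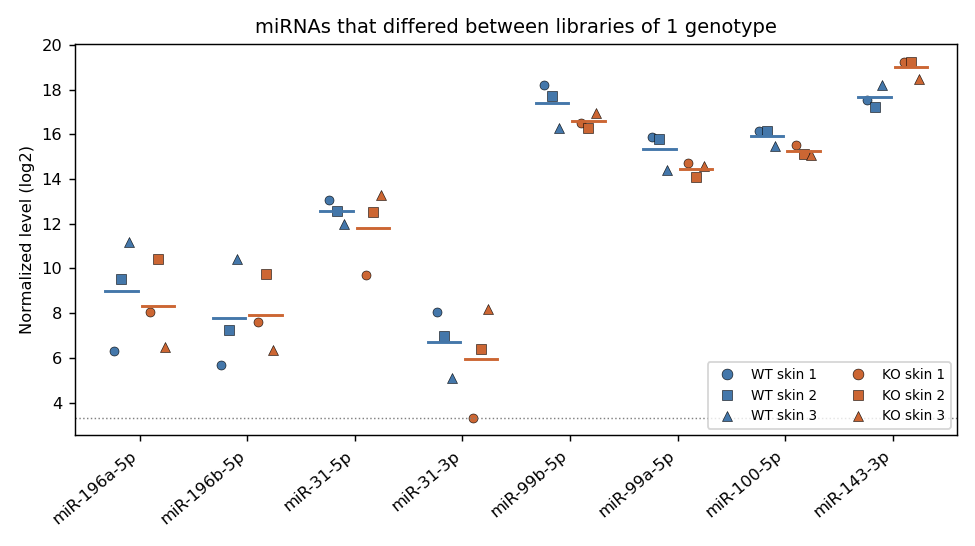
The y axis gives the deposited log2 level in each skin library, blue for WT and orange for knockout, with replicates by symbol, group means as bars and the floor dotted. miR-196a-5p and miR-196b-5p span a wide range within each genotype, and WT replicate 3 (blue triangle) lies apart from the other WT libraries in miR-99a-5p and miR-99b-5p.

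Across the tested miRNAs, Pearson correlations between libraries were 0.974 to 0.984 within WT, 0.974 to 0.989 within knockout and 0.968 to 0.989 between genotypes (3, 3 and 9 pairs). The first principal component held 39.9% of the variance, with WT libraries at 9.98, 7.10 and -5.22 and knockout libraries at -12.14, -3.60 and 3.88, so that the genotypes overlapped on it. WT replicate 3 lay on the side of knockout replicates 1 and 2, and knockout replicate 3 on the side of the other WT libraries.

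The arms of a hairpin come from 1 precursor but are kept or degraded separately. Of 88 hairpins with both arms above the floor in all 6 skin libraries, both arms were higher in knockout skin in 25 and both lower in 33. The arms had opposite signs in 29, and for miR-10b the 5p difference was 0. Some rows repeat values, such as miR-299a and miR-299b or the 5p arms of miR-486 and miR-3107. Not all 88 are therefore separate measurements. Among the leading miRNAs it was the 3p arm of miR-21a, miR-28a and miR-299a and the 5p arm of miR-127 and miR-532 that differed more. For miR-28a the log2 ratio of 3p to 5p was -2.18, -2.94 and -1.81 in WT and -1.14, -1.25 and -1.19 in knockout skin, and for miR-532 it was -3.15, -2.67 and -3.99 against -5.02, -5.27 and -4.34. Neither pair of ranges overlapped. Ranges were also apart for hairpins outside the leading miRNAs, such as miR-423, miR-322 and miR-30b, and they overlapped for others, such as miR-205. Ratios that do not overlap are thus not particular to the leading miRNAs, and their share of the 88 was not counted. These ratios follow from the values that ranked the miRNAs and are a description.

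The tumours, whose libraries are separate from those of skin, gave 1 call for the genotype contrast, lower in knockout mice (0.184%). Across the 544 tested miRNAs the genotype differences in the 2 tissues had a Pearson r of 0.017, a description over miRNAs that are not independent. Of the 25 miRNAs with an unadjusted p under 0.05 toward knockout skin, 15 were positive and 9 negative in tumours. Of the 6 toward WT skin, 5 were positive and 0 negative. Over all 544 tested, 307 were positive and 229 negative in tumours. The contrast of the 2 differences called no miRNA (0% of 544 by limma; 41, or 7.54%, at an unadjusted p under 0.05). For miR-21a-3p it was -1.90 ± 0.88 (adjusted p = 0.613), with a tumour difference of 1.34, for miR-127-5p -2.51 ± 0.72 (0.442), with -0.37, and for miR-299a-3p -2.18 ± 0.54 (0.357), with -0.80.

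The call count depends on how libraries are weighted. With limma's library quality weights over all 12 libraries, which gave the tumours weights of 0.44 to 0.62 and the skin libraries 0.84 to 3.74, 20 miRNAs were called higher and 2 lower (miR-100-5p and miR-335-5p). With weights estimated anew from the skin libraries alone, in a fit of those libraries chosen after seeing that result, 0 were called.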

How the data were processed

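Small RNA sequencing of total RNA, extracted with the miRVana kit from flash-frozen tissue per the labels' protocols, gave 12 libraries. The authors deposited 1 table of log2 values for 1251 miRNAs, with mm10 as the genome build per the submitters' processing notes. The aligner is not given in the sources used here, nor are the counting tool and normalization. Linear sums per library are 6065014 to 6065621 and the column distributions match, as quantile normalization gives, judged from the values, with a floor at the log2 of 10. Read depth is therefore unknown, no counting interval can be given, and the 370 to 465 miRNAs above the floor per skin library are the nearest measure.

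Groups follow the genotype and tissue labels. Replicates are numbered in accession order and pair nothing. The labels do not state that samples are separate mice, so p-values measure only how these samples vary, which may be technical. No row measures Trp63, so the genotype was not checked here.

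The 544 miRNAs that 2 or more of the 12 libraries held above the floor were fitted with limma 3.58.1 in R 4.3.3 with 4 group means (8 residual degrees of freedom, trend and robust variance moderation) and adjusted by the Benjamini-Hochberg method; the code was tested on simulated data. Of the rest, 647 were at the floor everywhere and 60 were above it in 1 library. Groups "do not overlap" where all 3 knockout values lie on 1 side of all 3 WT values; an exact permutation test of 3 against 3 cannot go below 0.10. Named miRNAs are the 10 with the smallest p per direction, since none was called, all p63-linked and keratinocyte members, up to 3 per other list, and their other arms. Further names were chosen after their values were seen. The comparison, members and 32 lists were chosen with earlier results of these data known. Of the 1251 rows, 1001 matched RefSeq by name. In 19 alternatives the filter, pseudocount, floor, scaling, variance model or libraries were changed.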

Additional observations from a re-analysis of the deposited data

How the results depend on the processing

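The call count of 0 in each direction was kept with the skin libraries alone, weaker or stricter filters up to 3 skin libraries, pseudocounts of 1 and 10, a floor of 32, median-ratio scaling, repeated quantile normalization, the 5 most abundant miRNAs left out, and no trend or robust step. It was 1 higher with only miRNAs above the floor in all 6 skin libraries, 20 higher and 2 lower with library quality weights, and 0 to 2 higher when 1 skin library was left out, the 2 without knockout replicate 3. All 10 miRNAs named as higher and all 10 named as lower kept their sign in every setting that gave a nonzero value. The counts at an unadjusted p under 0.05, 25 higher and 6 lower, became 61 and 39 with library quality weights. They were 47 and 42 with weights estimated anew in skin alone, and 29 and 18 with the skin libraries alone and no weights. Among lower miRNAs the count was 3 with median-ratio scaling and 2 with miRNAs above the floor in all 6 skin libraries, and leaving out 1 library gave 15 to 32 higher (15 without WT replicate 2) and 2 to 9 lower. No paired analysis was possible because the labels give no numbers that pair knockout with WT skin.

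Signs turned only for miRNAs near 0 or spread within a genotype. With the 5 most abundant left out, miR-130b-3p was at -0.019. With library quality weights, miR-24-3p was at -0.0030 and miR-196a-5p at 0.50, and with weights in skin alone at -0.014 and 0.57. The cause was not tested. When 1 library was left out, the ranges were -0.14 to 0.23 for miR-130b-3p, -0.85 to 0.19 for miR-143-5p, -0.35 to 0.042 for miR-145a-5p, -2.04 to 0.41 for miR-196a-5p, -0.93 to 1.43 for miR-196b-5p, -0.29 to 0.19 for miR-203-3p, -0.063 to 0.14 for miR-205-5p, -0.17 to 0.20 for miR-24-3p, -1.86 to 0.57 for miR-31-3p, -1.45 to 0.34 for miR-31-5p and -0.71 to 0.26 for miR-668-3p. Over all settings, 34 (with fewer members tested) to 48 Dlk1-Dio3 members were positive. Floored values and 3 libraries per group limit what can be seen.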

Other observations

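Other miRNA families of skin showed no call in knockout against WT skin, and their groups overlapped for most members. All 6 tested members of the miR-15 and miR-16 family, which restrains the cell cycle, had negative differences, with a median of -0.26. Hairpins of miR-15b and miR-16 lie in introns of the same gene, Smc4, so these 6 are not independent measurements. The let-7 family, which marks differentiated cells, had 2 positive and 6 negative differences among 9 tested members and a median of -0.05. The miR-29 family, which targets collagen transcripts, had 2 positive and 3 negative differences with a median of -0.05, and the miR-183 cluster 3 negative ones with a median of -0.21.

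In the list of miRNAs of squamous tumours, miR-21a-3p stood beside members of the opposite sign. Of its 7 tested members 2 were positive and 4 negative, with a median of -0.39. miR-224-5p was at 9.31, 8.35 and 8.33 in WT and 7.90, 7.73 and 6.93 in knockout skin, groups that do not overlap. Its difference was -1.14 ± 1.0, and that of miR-210-3p, which also did not overlap, was -0.39 ± 0.55. Thus 2 of the 7 members were lower in knockout skin without overlap, where 5.15% of all tested miRNAs were so. In the other direction it was 1 of 7, where 6.80% of all tested were so. Both SEs include the spread within tumours. The Sfmbt2 cluster, the other large clustered set examined, had 80 rows, of which 16 were tested and 8 were above the floor in skin. Some of these rows hold the same values (miR-669a-3p and miR-669o-3p, for example) and are not separate measurements, so no count by direction is given. Genotypes overlapped in all 16.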
